A study of Arabidopsis thaliana with 9 samples.

Results

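The transcriptome described here is that of wild-type Col-0 seedlings of *Arabidopsis thaliana*, taken as 1 of the 3 genotypes of a study of damage responses and vascular differentiation. Its members were the 3 Col-0 libraries among the 9 libraries of the series, and its level for each gene was the sum over those 3 libraries, scaled to a total of 1000000 (CPM). The other genotypes of the series were the *exg1-1* mutant of *EXG1* (AT3G08030; the sample labels spell it EVG1) and the *rlp44-3* mutant of *RLP44*, and neither is compared here. Col-0 was the wild-type control, with no transgene and neither of these mutations. Whole seedlings, roots and shoots together, were 7 days old and had grown upright on plates under a short-day cycle, lit for 8 h out of each day, at 20 °C. At which hour they were harvested is not stated. Messenger RNA was enriched by its poly(A) tail before sequencing.

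The table listed 33341 genes, and 25717 of them had values. The Col-0 columns summed to 9418524, 8364383 and 9606982 reads. The values were fitted means and not counts: the columns of Col-0 replicates 1, 2 and 3 were exactly proportional over all genes, so every gene had the same CPM in each library. The spread between replicates is therefore not in the table, and the levels below carry no standard deviation and no test. Intervals cover counting error only, computed as if the fitted sum over the 3 libraries were a count of reads. A single read over the 3 libraries stood for 0.0365 CPM, and 1916 genes sat at the lowest value of the table, which stood for no reads. A count of 0 allows a level of up to 0.11 CPM, the level of 3 reads.

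A young seedling that has opened its cotyledons lives by photosynthesis, and most of the proteins of that machinery are encoded in the nucleus and imported into the chloroplast. Antenna proteins bind chlorophyll and pass light energy to photosystems I and II, the electron transport chain makes NADPH and ATP, and Rubisco and the other enzymes of the Calvin cycle fix carbon dioxide. Growth adds ribosomes, cytoskeleton and new cell wall, while receptors for light and hormones, the circadian clock and transcription factors are made from far fewer transcripts. Transcripts of the chloroplast and mitochondrial genomes mostly lack the long poly(A) tails of nuclear mRNA.

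The transcriptome was dominated by few genes. The 2 highest genes held 6.75% of all fitted reads, the 100 highest 32.7% and the 1000 highest 57.4%, and 560 genes were enough to reach 50%. At the other end, 15417 genes held 99% of the reads. A level of at least 1 CPM was reached by 18949 genes, 73.7% of those with values, and at least 10 CPM by 11808 genes. Only 1490 genes reached 100 CPM, 97 reached 1000 CPM and 5 reached 10000 CPM. Of the 23385 nuclear protein-coding genes with values, 18492 reached 1 CPM. When these genes alone made up the total, the 100 highest held 28.2% and 753 genes reached 50%.

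**Figure D1:**
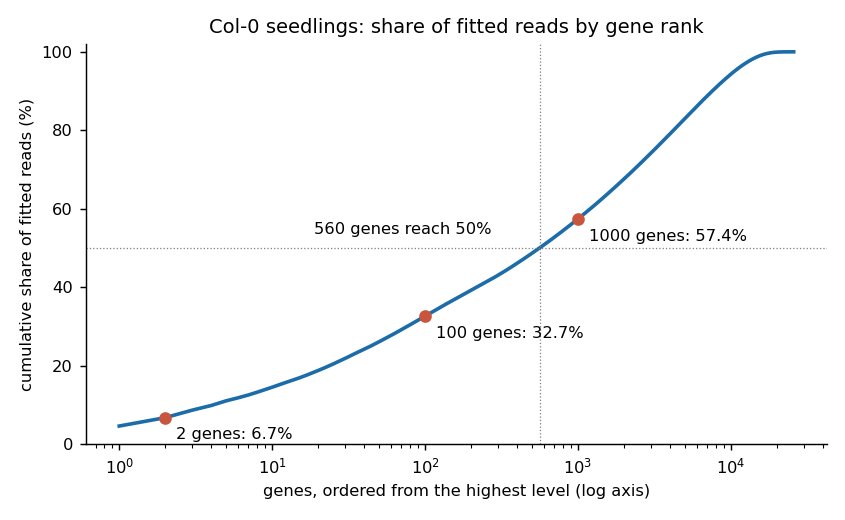
Cumulative share of fitted reads (%) against the number of genes taken from the highest level down (log axis) in Col-0 seedlings. The curve passes 32.7% at 100 genes, 50% at 560 genes and 57.4% at 1000 genes.

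Because a long transcript gives more reads than a short one at the same number of molecules, levels of genes were compared per length, and an order by CPM is only an order of reads. Fitted reads were divided by the length of all exons of the gene merged and scaled to 1000000 over the 25487 genes with a RefSeq length (TPM). The median nuclear protein-coding gene among those at or above 1 CPM stood at 13.7 TPM, the lower quartile was 5.75 TPM, the upper quartile 31.2 TPM and the 95th percentile 145 TPM. The 100 highest protein-coding genes by CPM had a median exon length of 1.44 kb and a median of 3 exons, against 1.81 kb and 5 exons for all detected protein-coding genes. Genes below 1 CPM were shorter, with a median of 1.18 kb and 2 exons, and 30.6% of them had a single exon, against 14.4% of all detected genes. Across the 18492 detected genes, the Spearman correlation of length was -0.17 with TPM and 0.17 with CPM, a description over genes that share the same libraries and in which length enters both scales.

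The gene with the most reads was not a messenger RNA. AT3G06365, a transcript that RefSeq lists only as an uncharacterized misc_RNA, held 46054 CPM, and the 18S ribosomal RNA gene AT3G41768 held 21438 CPM. RefSeq places both on the same strand of chromosome 3, separated by the 5.8S rRNA gene AT3G41979, which had no value in the table. Per length both stood at the same level, 19207 TPM for AT3G06365 and 19345 TPM for AT3G41768. The 7 genes of this neighbourhood and of its copy on chromosome 2 were grouped as the nuclear rRNA unit and together held 6.81% of reads (95% Wilson interval 6.80 to 6.82%). The chromosome 2 copies had far fewer reads. The 18S gene AT2G01010, which is 99.9% identical to AT3G41768 over its whole length, had 36.6 CPM, and AT2G03875, which is 99.6% identical to part of AT3G06365, had 140 CPM. Reads of such copies cannot be placed with certainty, so only their sum can be read.

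Chloroplast-encoded genes held 2.33% of fitted reads and mitochondria-encoded genes 0.508%, leaving 97.2% for the nucleus. Both organelles are named here by locus only, because the annotation used does not pair these identifiers with gene names. Of 129 chloroplast loci with values, 100 reached 1 CPM. Their reads were spread over many loci: the 10 highest held 56.1%, led by ATCG00480 with 1933 CPM, ATCG00490 with 1798 CPM, ATCG00470 with 1627 CPM and ATCG00020 with 1358 CPM. The mitochondrial reads were concentrated. ATMG00020 had 3386 CPM and ATMG01390 had 1318 CPM, and these 2 loci held 92.7% of all mitochondrial reads, while the next, ATMG00090, had 148 CPM and only 30 of 101 loci reached 1 CPM.

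Among the 25 genes with the most reads, 21 belonged to nuclear photosynthesis, 2 to the rRNA unit and 1 to the mitochondrial genome, and the remaining gene was *CA1*, a carbonic anhydrase, with 3258 CPM. *CAB1*, an antenna protein of photosystem II, led the messenger RNAs with 19057 CPM, followed by *RBCS1A*, a small subunit of Rubisco, with 11958 CPM and by the antenna gene *LHB1B2* with 11794 CPM. Below them came *CAB2* with 7848 CPM, *RCA*, the activase that frees the active sites of Rubisco, with 7179 CPM, and *CAB3* with 7128 CPM. The antenna genes of photosystem I followed, *LHCA4* with 6604 CPM and *LHCA1* with 5974 CPM. The first photosystem subunit outside the antenna in the order was *PSBO1*, of the oxygen-evolving complex of photosystem II, with 4505 CPM. Among the 100 highest genes, 61 belonged to nuclear photosynthesis and 8 were chloroplast-encoded. Among the 500 highest the number for photosynthesis was 91, and 75 ribosomal protein genes had joined.

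**Figure D2:**
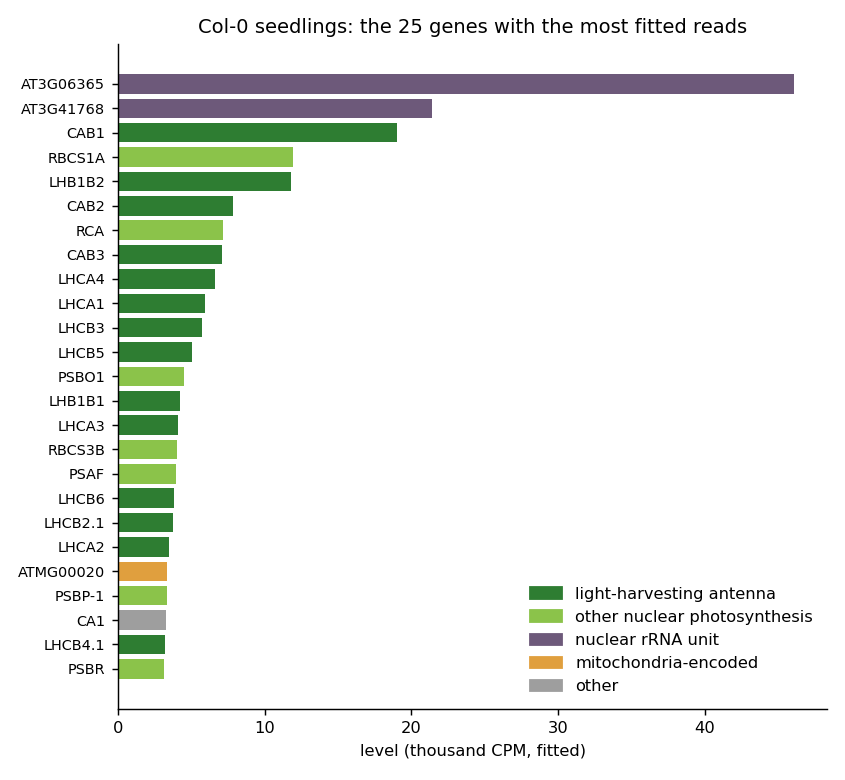
Level (fitted reads as CPM, plotted in units of 1000 CPM on a linear axis from 0) of the 25 genes with the most reads in Col-0 seedlings, coloured by class. AT3G06365 and the 18S rRNA gene AT3G41768 stand at the top with 46054 and 21438 CPM, and *CAB1* is the highest messenger RNA with 19057 CPM.

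Close relatives make some of these single-gene levels uncertain. *CAB1* is 96.1% identical to *CAB3* over 836 bases of its transcript, and *CAB2* is 94.1% identical to *CAB3* over 1038 bases. *LHCB2.1* and *LHCB2.2* are 94.4% identical over 1032 bases. The sources do not say how reads that fit several genes were counted. *PGLP1* (AT5G36700), a phosphoglycolate phosphatase of photorespiration, sat at the lowest value of the table while AT5G36790, 98.7% identical to it over 1782 bases, had 16.3 CPM. Whether the treatment of such reads moved these values was not tested. Of the 25 highest genes, 8 overlap a gene on the other strand, among them *CAB1*, *LHB1B2*, *RCA* and *LHCA4*, and whether strand was used in counting was not given.

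Per length, *CAB1* took the first place with 25278 TPM, ahead of both rRNA genes, and then came *LHB1B2* with 18414 TPM and *RBCS1A* with 15387 TPM. *CAB2* had 9745 TPM, *CAB3* 9509 TPM, *LHCA4* 8320 TPM, *LHCA1* 7657 TPM and *LHCB3* 7524 TPM. Small subunits moved up. *PSBR*, a small protein of photosystem II, had 6578 TPM and stood in place 11 per length, and *PSAO* of photosystem I had 5495 TPM. *RCA*, in place 7 by reads, had 5575 TPM and stood in place 13.

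Genes were sorted into classes by RefSeq symbol and product name, and the 6 classes of nuclear photosynthesis (antenna, Rubisco small subunits, photosystem and electron transport subunits, Calvin cycle, photorespiration and tetrapyrrole synthesis) held 22.1% of fitted reads with 139 genes. Per length their share was 28.3%. The median member stood at 715 TPM, while the median over all detected protein-coding genes was 13.7 TPM. Of the 139 genes, 136 reached 1 CPM, against 79.1% of all nuclear protein-coding genes.

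**Figure D3:**
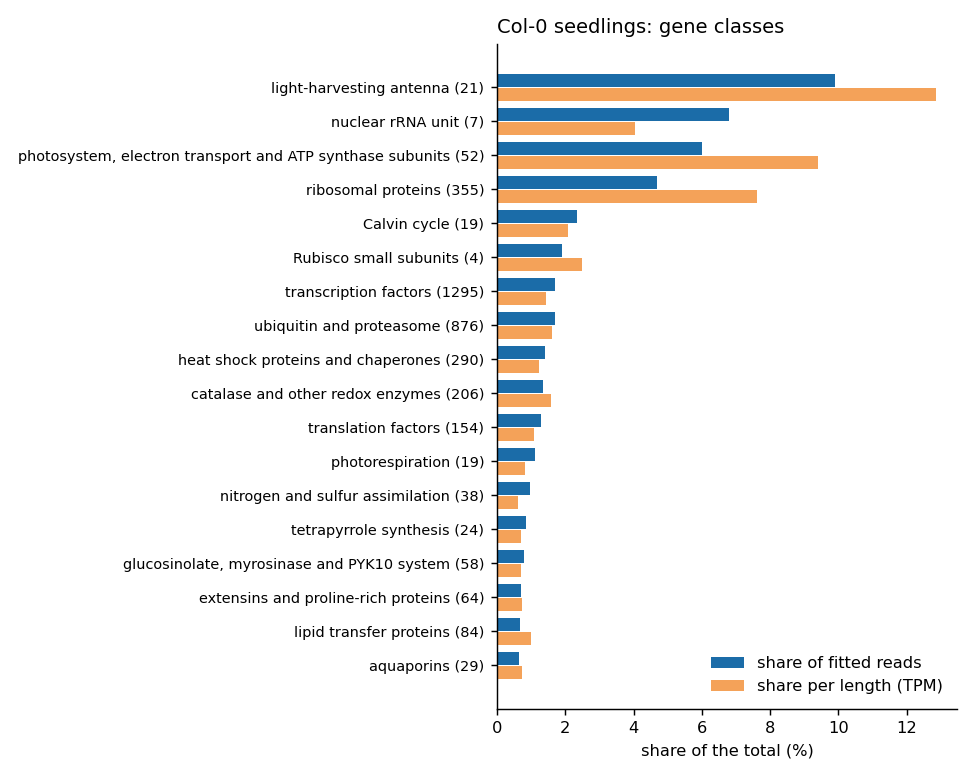
Share of the total (%) held by 18 gene classes in Col-0 seedlings, as fitted reads (blue) and per length as TPM (orange), with the number of genes with values in parentheses. The antenna leads on both scales with 9.91% of reads and 12.8% per length, and ribosomal proteins are larger per length (7.63%) than by reads (4.70%).

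The light-harvesting antenna was the largest of the named classes. Its 21 genes held 9.91% of reads and 12.8% of the total per length, with a median of 4392 TPM. Most of it was LHCB1, the main protein of the mobile antenna of photosystem II: its 5 genes, *CAB1*, *CAB2*, *CAB3*, *LHB1B1* and *LHB1B2*, summed to 68194 TPM, 53.1% of the antenna. The 3 *LHCB2* genes summed to 10804 TPM and *LHCB3* had 7524 TPM. The minor antennae that link this pool to the core were close to one another, with 6230 TPM for *LHCB4* over 3 genes, 5921 TPM for *LHCB5* and 5167 TPM for *LHCB6*. In photosystem I, *LHCA4* (8320 TPM) and *LHCA1* (7657 TPM) lay above *LHCA3* (4146 TPM) and *LHCA2* (4073 TPM). *Lhca5* and *Lhca6* were far lower, each with 185 TPM. *LHCB4.3* had 4.42 TPM, against 3737 TPM for *LHCB4.1* and 2489 TPM for *LHCB4.2*.

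Photosystem, electron transport and ATP synthase subunits held 6.0% of reads over 52 genes. The 13 genes with a symbol of a photosystem I subunit lay between 1015 and 5495 TPM with a median of 3113 TPM, and AT1G49975, a subunit N by product name alone, had 41.1 TPM. The 11 genes with a symbol of a photosystem II subunit had a median of 2174 TPM and lay between 3.03 and 6578 TPM, and AT4G37230, of the PsbO family by product name alone, had 1.24 TPM. Several subunits are encoded by gene pairs, and the pairs differed in balance. *PSBO1* had 2.77 times the level per length of *PSBO2*, *PSAD-1* 1.68 times that of *PSAD-2* and *PSAE-1* 3.62 times that of *PSAE-2*. *PSBQ-2* (1871 TPM) and *PSBQA* (1954 TPM) were nearly even, as were the ferredoxin-NADP reductases *FNR1* (679 TPM) and *FNR2* (631 TPM). One member dominated in others. *PSBP-1* had 4054 TPM and *PSBP-2* 3.03 TPM. The plastocyanin gene *DRT112* had 3354 TPM and *PETE1* 302 TPM, and the ferredoxin gene *FED A* had 3835 TPM and *FD1* 459 TPM. *NPQ4*, which encodes the PsbS protein of energy dissipation, had 1408 TPM.

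The 4 Rubisco small subunit genes held 1.92% of reads. *RBCS1A* alone carried 62.3% of these, and per length it stood at 15387 TPM, against 4647 TPM for *RBCS3B*, 4355 TPM for *RBCS2B* and 633 TPM for *RBCS1B*. That is 3.31 times the level of *RBCS3B* and 24.3 times that of *RBCS1B*. By reads, *RBCS1A* had 11958 CPM and *RBCS1B* 735 CPM, with merged exons of 1268 and 1894 bases. *RBCS1B* is 92.2% identical to *RBCS3B* over 745 bases, so the split of reads between such copies is uncertain. The 19 Calvin cycle genes held 2.34% of reads. After *RCA* came the plastid aldolase *FBA2* with 2694 TPM, the glyceraldehyde 3-phosphate dehydrogenase subunits *GAPA-2* with 1749 TPM, *GAPA* with 1423 TPM and *GAPB* with 1308 TPM, and the phosphoribulokinase *PRK*, which regenerates the substrate of Rubisco, with 1079 TPM. The sedoheptulose-bisphosphatase *SBPASE* had 799 TPM.

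Photorespiration, which recovers carbon from the oxygenation product of Rubisco, held 1.11% of reads over 19 genes. The class median was 277 TPM, and 1 gene lay below 1 CPM. Its leading enzymes were near one another. *SHM1*, a serine hydroxymethyltransferase, had 1126 TPM, *AGT* 1091 TPM, the glutamate:glyoxylate aminotransferase *GGT1* 1085 TPM, the glycolate oxidase *GOX1* 1060 TPM and *GLDP1*, the P-protein of glycine decarboxylase, 871 TPM. The hydroxypyruvate reductase *HPR* had 600.2 TPM, *GLDP2* 277 TPM and *SHM2* 33.4 TPM. Tetrapyrrole synthesis, the route to chlorophyll, held 0.86% over 24 genes. Members were found by gene symbol or synonym, so genes of the route can be missing from this share and order. *CRD1* led per length with 2058 TPM, followed by *GUN5*, the large subunit of magnesium chelatase, with 715 TPM, *PORB* with 696 TPM, *CHLI1*, another subunit of the chelatase, with 427 TPM and *HEMA1*, the glutamyl-tRNA reductase at the entry of the route, with 417 TPM. Within the gene pairs compared here, single members dominated. *PORA*, the protochlorophyllide oxidoreductase known for its abundance in dark-grown seedlings, had 2.21 TPM, and *PORB* was 315 times higher. *PORC* was not among the members of the class, so its level is not given here. *HEMA1* was 33.7 times higher than *HEMA2*.

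Ribosomal proteins, of the cytosol and of the organelles together, came after the antenna and the photosystem subunits, with 355 genes and 4.70% of reads. In contrast to the antenna, no gene dominated. The 3 highest held 4.40% of the class, whereas the 3 highest antenna genes held 39.1% of theirs. The median ribosomal protein gene stood at 160 TPM, and 334 of 355, 94.1%, reached 1 CPM, against 79.1% of all nuclear protein-coding genes. Per length the highest were *SSR16*, a small subunit protein, with 1106 TPM, *emb2386*, of the L19e family, with 1001 TPM and AT5G20290, of the S8e family, with 974 TPM. Translation factors held 1.30%, led per length by the elongation factor gene AT5G60390 with 1161 TPM and *FBR12*, which encodes an eIF5A protein, with 1023 TPM.

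Among other housekeeping classes, ubiquitin and proteasome genes (876 genes, F-box proteins included) held 1.70% of reads, and *UBQ10*, a polyubiquitin, made up 9.17% of that with 1559 CPM. Chaperones held 1.41%, led per length by *HSC70-1* with 1071 TPM and by the plastid chaperonins *CPN20* with 557 TPM and *CPN60A* with 357 TPM. Redox enzymes held 1.36%, led per length by the iron superoxide dismutase *FSD1* with 1024 TPM and the glutathione transferase *GSTU19* with 981 TPM. The catalase *CAT3*, first in the class by reads, had 513 TPM. Nitrogen and sulfur assimilation held 0.968%: the methionine synthase *ATMS1* had 1089 TPM, the plastid glutamine synthetase *GS2* 888 TPM and the methionine adenosyltransferase *MTO3* 651 TPM. Glycolysis held 0.631%, with *GAPC2* at 1149 TPM. Tubulins and actins held 0.596% over 25 genes with a median of 186 TPM. The highest were *TUA6* with 648 TPM, *TUA4* with 496 TPM, *TUA2* with 488 TPM and *ACT2* with 487 TPM, while *TUB1* had 27.7 TPM and *ACT4*, *ACT9* and *ACT12* stood at about 1 read. Aquaporins held 0.655%, led per length by the tonoplast channels *TIP2* with 1679 TPM and *DELTA-TIP* with 1165 TPM and by the plasma membrane channel *PIP1B* with 922 TPM.

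Some small classes rested on few genes. The glucosinolate, myrosinase and PYK10 system, a chemical defence of the Brassicales, held 0.779% over 58 genes, of which *PYK10*, a beta-glucosidase of endoplasmic reticulum bodies, had 2501 TPM, its binding protein *PBP1* 1078 TPM and the myrosinase *TGG1* 724 TPM. Among 7 metallothioneins, small metal-binding proteins, *MT2B* had 3316 TPM and *MT3* 1265 TPM. Among 67 class III peroxidases *PRXR1* carried 41.2% of the reads of the class with 896 CPM. Lipid transfer proteins held 0.682%, led per length by AT2G45180 with 2966 TPM, AT2G10940 with 1718 TPM and *LP1* with 1233 TPM. The class of seed storage proteins, oleosins and LEA proteins held 0.268%, but its leading members were not storage proteins. They were dehydrins, which protect cells from water loss: AT1G54410 with 1112 TPM, *ERD14* with 313 TPM and *COR47* with 238 TPM. The class rule did not take in AT1G13930, an oleosin-B3-like protein by product name, which had 2492 TPM, above these dehydrins. Genes can therefore be missing from the share and order of this class. *THI1*, a thiazole synthase of thiamine synthesis, was the highest gene outside all classes per length, with 2799 TPM.

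The 6 cell wall classes, which bear on the study's interest in wall changes, held 1.70% of reads over 373 genes. At or above 1 CPM were 278 of them, against 79.1% of all nuclear protein-coding genes. Extensins and proline-rich proteins made up 0.717%, with *ELP* at 1879 TPM, *PRP4* at 1878 TPM and the extensin *EXT3*, a structural glycoprotein, at 804 TPM. Arabinogalactan proteins held 0.337%, led per length by AT4G16980 with 791 TPM, *AGP15* with 482 TPM and *AGP21* with 434 TPM. Pectin enzymes and their inhibitors held 0.256% over 168 genes and 111 of these, 66.1%, reached 1 CPM. XTH enzymes, which cut and rejoin xyloglucan chains, held 0.12% over 31 genes. *XTH7* had 261 TPM, *XTH4* 215 TPM, *XTH31* 155 TPM and *XTH24* 119 TPM. Expansins, which loosen walls, held 0.0943% over 26 genes, and *EXPA1* led with 250 TPM, followed by *EXPB3* with 137 TPM and *EXPA8* with 132 TPM.

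Cellulose synthase subunits differ between primary and secondary walls. The primary wall subunits *CEV1* (177 TPM), *CESA1* (169 TPM), *CESA6* (114 TPM), *CESA2* (62.9 TPM) and *CESA5* (52.7 TPM) summed to 575 TPM. The secondary wall subunits of xylem, *IRX5* (5.58 TPM), *IRX3* (5.01 TPM) and *IRX1* (3.97 TPM), summed to 14.6 TPM, so that the primary wall sum was 39.5 times higher. In whole seedlings a low level can come from few cells or from little RNA per cell, and these cannot be told apart. Each of the 3 secondary wall genes overlaps a gene on the other strand, as do *CEV1* and *CESA1* among the primary wall genes.

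Transcription factors, 1295 genes by product name, held 1.70% of reads, and 916 of them, 70.7%, reached 1 CPM, against 79.1% of all nuclear protein-coding genes. The median transcription factor stood at 4.71 TPM. Among these 1295 genes, the highest was *STO*, a B-box protein of light signalling, with 325 TPM. Next came *bZIP2* with 197 TPM, the MYB-related gene AT1G19000 with 154 TPM and *BBX15* with 147 TPM. The auxin-response repressor *IAA9* had 142 TPM and the homeobox gene *HB-1* 136 TPM. Product names missed some factors, and *GLK2*, with 188 TPM, lies outside these 1295 genes. Families differed in how many members were present. Among 76 MADS-box genes, many of which specify floral organs, 20 reached 1 CPM (26.3%) and *SVP*, a repressor of flowering, was the highest with 86.2 TPM. Of the AP2/ERF genes 69 did (56.1%) and among 84 NAC genes 55 (65.5%), whereas 27 of 30 GATA factors, 22 of 25 GRAS proteins and 48 of 56 bZIP factors did. The median MADS-box gene had 0.143 TPM and the median homeobox gene 9.73 TPM. Receptor-like kinases, 338 genes, held 0.55% of reads, led per length by the wall-sensing kinase *FER* with 90.05 TPM.

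Levels of known regulators were read from lists of 162 genes found in the annotation. These lists also hold the 3 genes of the study and 10 reference genes for quantitative PCR. Of the 162 genes, 147 reached 1 CPM, 12 lay below and 3 had no value in the table. Of all nuclear protein-coding genes with values, 79.1% reached 1 CPM. The median over all these listed genes was 18.6 TPM. Of the 162 genes, 31 overlap a gene on the other strand, so that their levels are uncertain if strand was not used in counting.

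**Figure D4:**
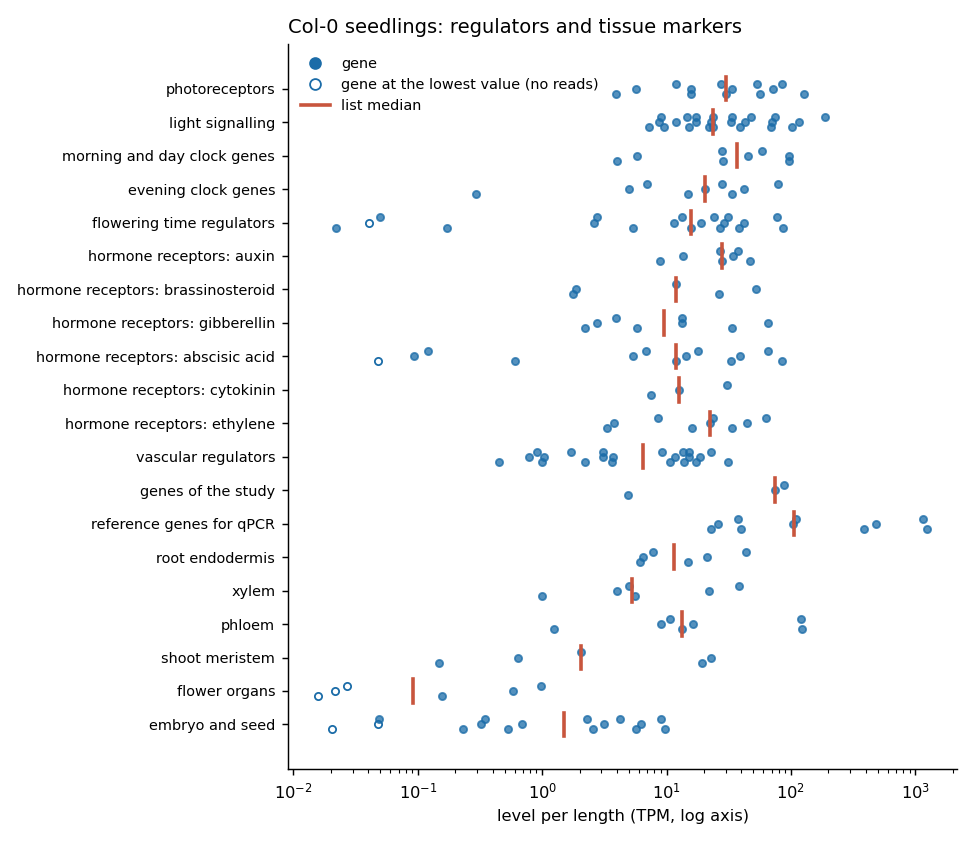
Level per length (TPM, log axis) of each gene with a value in 20 lists of regulators, reference genes and tissue markers in Col-0 seedlings; open circles are genes at the lowest value of the table, which stands for no reads, and red bars are list medians. Photoreceptors centre on 30.2 TPM and qPCR reference genes on 107 TPM, while flower organ genes centre on 0.0922 TPM.

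All 13 photoreceptor genes exceeded 1 CPM. The blue light receptor *PHOT1*, which steers phototropism, was the highest with 128 TPM, then the cryptochrome *CRY1* with 85.3 TPM, the UV-B receptor *UVR8* with 71.5 TPM, *CRY2* with 56.6 TPM and *PHOT2* with 53.4 TPM. The 5 phytochromes, receptors of red and far-red light, summed to 94.6 TPM, of which *PHYA* gave 31.9%, *PHYB* 28.8%, *PHYE* 16.7%, *PHYC* 16.5% and *PHYD* 6.04%. *PHYA* and *PHYB* differed by 1.11 times only. The lowest photoreceptor was *FKF1*, a blue light receptor of the photoperiod pathway, with 3.90 TPM.

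Light signalling genes spanned 7.29 to 188 TPM. The chloroplast regulators *GLK2* (188 TPM) and *GLK1* (117 TPM) were the highest, followed by the B-box factor *BBX22* with 103 TPM. Among the phytochrome interacting factors, which promote elongation, *PIF4* had 75.02 TPM, *PIF5* 70.2 TPM, *PIF7* 43.0 TPM, *PIF1* 22.2 TPM and *PIF3* 9.06 TPM. *HY5*, which acts against elongation in light, had 15.2 TPM and its relative *HYH* 33.1 TPM. Its repressors *COP1* and *SPA1*, subunits of a ubiquitin ligase, had 23.8 and 47.6 TPM.

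Clock genes peak at different hours, so their levels are those of the unstated hour of harvest. The same holds for any gene of the photoreceptor and flowering lists whose level changes over the day. Among genes of morning and day, *PRR7* had 96.3 TPM, *LNK2* 96.0 TPM, *LNK1* 59.1 TPM, *RVE4* 44.9 TPM, *CCA1* 28.5 TPM and *PRR9* 28.1 TPM, whereas *RVE8* had 5.77 TPM and *LHY* 4.03 TPM. *CCA1* and *LHY* encode closely related dawn factors, and *CCA1* was 7.07 times higher. Among evening genes, *CHE* had 79.4 TPM, *GI* 42.2 TPM, *PRR5* 28.0 TPM, *ELF3* 20.5 TPM, *TOC1* 15 TPM, *ELF4* 7.01 TPM and *LUX* 5.00 TPM. *BOA*, a relative of *LUX*, had 0.655 CPM (95% exact Poisson interval 0.389 to 1.04).

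Of the 21 flowering genes listed, 15 reached 1 CPM, against 79.1% of all nuclear protein-coding genes. The highest were repressors: *SVP* had 86.2 TPM, *TOE1* 77.1 TPM, *TEM2* 41.7 TPM, *TOE2* 38.6 TPM, *SMZ* 31.0 TPM, *TEM1* 29.2 TPM, *SNZ* 27.0 TPM and *AP2* 24.1 TPM. *FLC* had 19.0 TPM, *FLM* 13.2 TPM and *FRI* 5.36 TPM. Promoters of flowering lay below *AP2*, with *SOC1* at 15.6 TPM, *SPL9* at 11.4 TPM, *FD* at 2.77 TPM and *SPL3* at 2.61 TPM. *SOC1* was above *FLM*, and both *SOC1* and *SPL9* were above *FRI*. The long-day factor *CO* stood at 0.0393 CPM, about 1 read, *FUL* at the same level and *LFY* at 0.145 CPM, about 4 reads. *TSF*, a florigen gene, was at the lowest value, and *FT* and *AP1* had no value in the table.

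Hormone receptor families differed in how evenly their members were expressed. Among the auxin receptors *TIR1* had 47.3 TPM, *AFB3* 37.9 TPM, *AFB5* 34.4 TPM, *AFB2* 28.0 TPM, *AFB1* 27.2 TPM and *AFB4* 8.84 TPM. The brassinosteroid receptor *BRI1*, with which RLP44 is known to form complexes, had 52.3 TPM, and its relatives *BRL2*, *BRL1* and *BRL3* had 11.9 TPM, 1.88 TPM and 1.76 TPM. Its coreceptor *BAK1* had 26.6 TPM. The gibberellin receptors *GID1A* and *GID1C* both had 13.3 TPM and *GID1B* had 5.81 TPM. Among DELLA proteins, which these receptors remove, *RGA* gave 60.8% and *GAI* 31.0% of the sum, and *RGL1*, *RGL2* and *RGL3* lay between 2.2 and 3.91 TPM. The abscisic acid receptors ranged widely. *PYL4* had 85.5 TPM, *PYR1* 65.2 TPM, *PYL8* 38.7 TPM and *PYL1* 33.1 TPM, but *PYL12* had 0.264 CPM, *PYL3* 0.0737 CPM and *PYL10* 0.0393 CPM, and *PYL11* was at the lowest value.

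Of the cytokinin receptors *AHK3* gave 60.4% of the sum with 30.6 TPM, above *AHK2* with 12.5 TPM and *AHK4* with 7.55 TPM. Of the ethylene receptors *ERS1* had 23.4 TPM, *ETR1* 16.2 TPM, *EIN4* 8.58 TPM, *ERS2* 3.80 TPM and *ETR2* 3.31 TPM, and downstream the transcription factor *EIN3* had 63.2 TPM. The karrikin receptor *KAI2* had 82.6 TPM, the strigolactone receptor *D14* 37.9 TPM, the jasmonate receptor *COI1* 19.8 TPM and the salicylic acid receptor *NPR1* 14.3 TPM.

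Vascular regulators, the developmental context of the study, had a list median of 6.41 TPM over 22 genes, 3 of them below 1 CPM. The median of detected protein-coding genes, which leaves out genes below 1 CPM, was 13.7 TPM. That of the 1295 transcription factors, with genes below 1 CPM kept, was 4.71 TPM. Of the class III homeodomain genes, which pattern vascular and leaf tissue, *PHB* was the highest of the list with 31.5 TPM, and *PHV* had 18.6 TPM, *CNA* 17.4 TPM, *ATHB8* 15.2 TPM and *REV* 13.6 TPM. *LHW*, which acts with *TMO5* in early vascular divisions, came after *PHB* with 22.8 TPM, and *TMO5* had 11.8 TPM. The auxin response factor *MP* had 15.3 TPM. *PXY*, the receptor kinase of the cambium, had 13.7 TPM and *WOX4*, its target, 3.10 TPM. The VND genes, switches of vessel formation, were low. *VND3* had 3.07 TPM, *VND6* 2.2 TPM, *VND4* 1.70 TPM, *VND2* 1.04 TPM and *VND7* 1.01 TPM, and *VND1* (0.873 CPM, 95% interval 0.561 to 1.30) and *VND5* (0.551 CPM, 95% interval 0.307 to 0.903) lay below 1 CPM.

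The study's own genes stood far apart in level. *EXG1*, whose product belongs to the DUF642 family of wall-associated proteins, had 103 CPM and 88.3 TPM, higher than 91.4% of detected protein-coding genes, and only 2 of the 10 DUF642 genes were higher, *DGR2* with 244 TPM and AT5G11420 with 160 TPM. *RLP44* had 3.72 CPM (95% interval 3.04 to 4.52) and 4.91 TPM, higher than 21.4% of detected genes. Of 45 genes for receptor-like proteins 26 reached 1 CPM, against 79.1% of all nuclear protein-coding genes. Their median, with genes below 1 CPM kept, was 0.760 TPM. The highest was *RLP4* with 28.6 TPM, and *RLP44* was in place 11. *EXL3*, of the EXORDIUM family of growth-related wall proteins, had 73.9 TPM, after *EXL2* with 105 TPM. These families were chosen after their values were seen.

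Reference genes for quantitative PCR covered a broad range. *UBQ10* had 1244 TPM, *GAPC2* 1149 TPM, *ACT2* 487 TPM and *ACT7* 386 TPM, while *UBC9* had 110 TPM, *APT1* 103 TPM, *CBP20* 39.6 TPM, *PP2AA3* 37.5 TPM, the TIP41-like gene AT4G34270 26.1 TPM and the SAND family gene AT2G28390 22.8 TPM. *UBQ10* shares 92.8% identity with *UBQ14* over 895 bases.

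Levels were also read for markers of organs and cell types. These lists were chosen with earlier results of these data known, so their levels are a description only. Whether the seedlings were whole and vegetative was not tested. Mesophyll genes had a list median of 4364 TPM, and *RBCS1A*, *CAB2* and *CA1* of this list were already described above by their reads. All 5 epidermis and cuticle genes reached 1 CPM: *PDF1* had 354 TPM, *FDH* 155 TPM, *ATML1* 45.3 TPM, *PDF2* 44.3 TPM and *CER1* 7.30 TPM. All 6 matched guard cell genes did, between *BCA4* with 108 TPM, *OST1* with 15.5 TPM and *MYB60* with 13.0 TPM at the upper end and the lineage factors *FAMA* with 5.45 TPM, *SPCH* with 4.61 TPM and *MUTE* with 1.90 TPM at the lower.

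Root markers were measured as well. The 6 endodermal genes had a median of 11.4 TPM and lay between 6.18 TPM for *CASP4* and 43.9 TPM for *CASP1*, which builds the Casparian strip. The 6 root hair genes had a median of 4.41 TPM, with *PRP3* the highest at 17.3 TPM and *RSL4* below 1 CPM. The 3 root cap genes had a median of 1.71 TPM, with *BRN1* the highest at 4.31 TPM. *WOX5* of the quiescent centre had 1.87 TPM, and the 3 genes of suberised tissue had a median of 8.45 TPM. The 7 phloem genes had a median of 13.3 TPM: the sucrose transporter *SUC2* had 122 TPM and *SWEET11* 120 TPM, and the others lay between 1.23 TPM for *CALS7* and 16.4 TPM for *SWEET12*. The 6 xylem genes had a median of 5.30 TPM, from *VND7* with 1.01 TPM to the cysteine protease *XCP2* with 38 TPM. Of the 5 shoot meristem genes, *CLV1* had 22.8 TPM, *KNAT1* 19.4 TPM and *STM* 2.05 TPM, while *CLV3* had 0.323 CPM and *WUS* 0.113 CPM, about 3 reads.

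None of the 7 flower organ genes reached 1 CPM: *AG*, *AP3* and *SEP2* were at the lowest value, *AP1* had no value and the highest was *SEP3* with 0.768 CPM. The pollen gene *ANX1* was at the lowest value, and *ANX2* and *VGD1* had none. Embryo and seed genes were not all near 0. Of 17 genes 8 reached 1 CPM, against 79.1% of all nuclear protein-coding genes. No gene of this list was above 10 TPM, and the list median was 1.49 TPM. *OLEO2*, an oleosin, had 9.79 TPM, the LEA gene *EM6* 9.04 TPM, the storage albumin *SESA3* 6.28 TPM the cruciferin *CRA1* 4.23 TPM and the seed regulator *ABI3* 3.14 TPM, while *FUS3* was at the lowest value and *LEC2* at about 1 read. The senescence gene *SAG13* stood at about 1 read.

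Promoters of the abundant classes were described by short motifs, counted on either strand in the window of 250 bases before to 50 bases after each RefSeq gene start (TAIR10.1), for 27443 protein-coding genes. The motifs were the TATA box (TATAAA), the G-box (CACGTG) and I-box (GATAAG) known from light-regulated genes, the telo box (AAACCCTA) and site II element (TGGGCC) known from genes of ribosome production, the abscisic acid response element (ABRE, ACGTGTC), which can overlap a G-box, and the evening element (AAAATATCT) of clock-controlled genes. A match is a run of letters and not a shown binding site.

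The I-box was held by 42.9% of 77 promoters of antenna, Rubisco small subunit and photosystem genes, against 14.6% of all promoters, and the G-box by 29.9%, against 7.68%. The abscisic acid response element was held by 22.1%, against 4.33%. Within these 77 genes the I-box was held by 25 of 52 photosystem promoters, 6 of 21 antenna promoters and 2 of 4 *RBCS* promoters, those of *RBCS1B* and *RBCS2B*. With the 50 bases after the start left out, their I-box share was 23.4%, against 12.3% of all promoters, and their G-box share 19.5%, against 6.49%. The other 62 promoters of nuclear photosynthesis held the I-box in 21.0% and the G-box in 17.7%. Their I-box share upstream only was 11.3%. Among 108 promoters of seed storage, oleosin and LEA genes, 29.6% held the G-box and 23.1% the abscisic acid response element.

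Ribosomal protein promoters had another profile. Site II was held by 54.1% of 355 promoters, against 15.5% of all promoters, and the telo box by 36.6%, against 6.22%. The G-box was held by 3.94% of them, against 7.68%. With the upstream 250 bases alone, the telo box share was 16.9%, against 4.49%. The TATA box differed little between sets, with 49% of the 500 highest genes and 53.5% of genes below 1 CPM, against 52.1% of all promoters. Among the 500 highest genes, site II was held by 31.8% and the I-box by 24.2%. Among the 500 highest with photosynthesis and ribosomal protein genes left out, site II was held by 23.4% and the I-box by 18.4%. Of the 17 clock genes with a promoter, the evening element was held by *PRR9*, *PRR5*, *TOC1*, *LUX* and *BOA*, against 2.82% of all promoters.

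**Figure D5:**
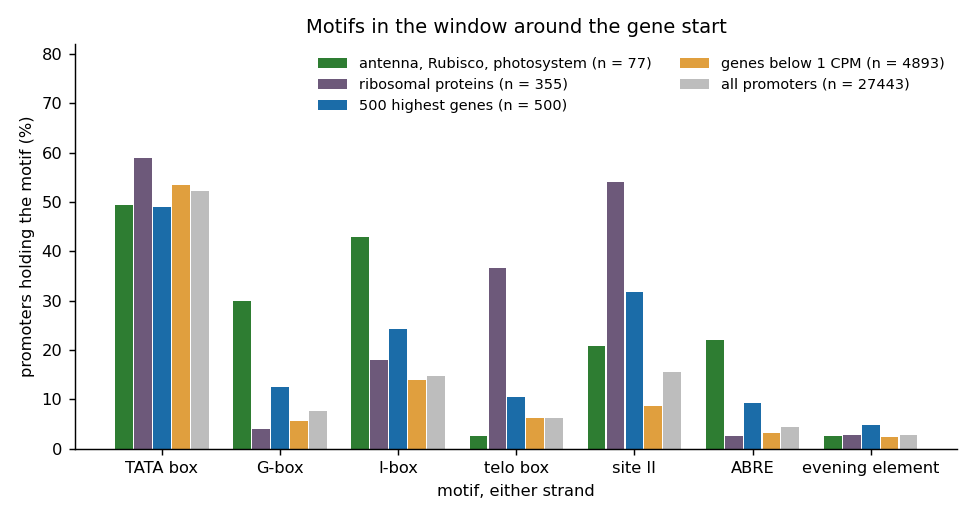
Share of promoters (%) holding each of 7 motifs on either strand, from 250 bases before to 50 bases after the gene start. The sets are antenna, Rubisco small subunit and photosystem genes (n = 77), ribosomal proteins (n = 355), the 500 highest genes, genes below 1 CPM (n = 4893) and all promoters (n = 27443). Among the sets shown, the I-box and G-box stand highest in the 77 genes (42.9% and 29.9%). The telo box and site II stand highest in ribosomal protein genes (36.6% and 54.1%).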

How the data were processed

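RNA was measured by sequencing of poly(A)-selected, directional libraries. The authors' steps were trimming (fastp), alignment to the TAIR10 genome (HISAT2), counting per gene (HTSeq-count) and modelling (DESeq2), in versions that the sources do not name. The deposited table, named as raw counts, holds estimated counts (expected counts) fitted by a model: none of the Col-0 values was whole within a tolerance of 1e-06, and 3 columns of no listed sample were not used. For Col-0 the columns of replicates 1, 2 and 3 were summed and scaled to CPM. TPM used merged exon lengths of RefSeq (TAIR10.1), where 25487 of 25717 genes were found. The 230 organelle loci have neither name nor length there. Coordinates and promoter sequences are left out, since the alignment used another release.

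The design was descriptive and no test was run. Gene classes followed RefSeq symbols and product names, with first match kept. The members, gene classes and lists were chosen with earlier results of these data known. Genes named are the 25 highest by CPM, the 15 highest per length, the 3 highest per class, members of the lists, and the highest locus of each organelle; others were chosen after their values were seen. *GC1*, *LAT52*, *RVE6* and *EF1A* were not matched. Transcript identity came from blastn 2.17.0. Intervals are exact Poisson for low genes and Wilson for shares, at 95%. The scaling was tested on simulated data. Alternatives were other denominators, detection thresholds, gene lengths, class rules and promoter windows, and omission of each library. Calculations used Python 3.11.15, numpy 2.4.6, pandas 2.3.3, scipy 1.17.1 and matplotlib 3.10.9.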

Additional observations from a re-analysis of the deposited data

How the results depend on the processing

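Omission of Col-0 replicate 1, 2 or 3 left the 21 values computed without it as they were, since the columns are proportional (100 highest genes 32.7%, 18949 genes at 1 CPM), and this says nothing about biological spread. No paired analysis was possible because the values hold no spread between replicates. The share of organelle genes per length was not run because these loci have no length in the annotation. The 100 highest genes held 32.9% with nuclear genes only, 22.3% with the 10 highest left out and 28.2% with nuclear protein-coding genes only. Genes detected numbered 21998 at 3 reads, 20521 at 10 reads and 23801 above the lowest value. Nuclear photosynthesis held 28.3% per length, 24.6% of nuclear protein-coding reads and 21.6% with members by symbol only. The antenna held 12.8% per length and 11.0% of nuclear protein-coding reads. Ribosomal proteins held 7.63%, 5.22% and, by symbol only, 0.877%, because most of them carry no symbol. With the nuclear rRNA unit left out and every organelle locus kept, the chloroplast share was 2.50% and the mitochondrial share 0.545%. By mean transcript length and longest transcript, *RBCS1A* had 16081 and 15071 TPM, *CAB1* 23814 and 24760 TPM and *PHYA* 34.6 and 32.9 TPM. On the same lengths, the median over the regulator, study and reference gene lists was 18.6 and 18.2 TPM. With the 250 upstream bases only, the TATA box share of the 500 highest genes was 42.2% and the telo box share of ribosomal proteins 16.9%. The I-box share of antenna, Rubisco small subunit and photosystem genes was then 23.4%. The denominators of nuclear protein-coding genes for the 100 highest and of the total without the rRNA unit were chosen after seeing the data. Depth limits low genes: at 27389889 fitted reads in all, 1 CPM stood for about 27 reads.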
